A study of Mus musculus with 16 samples.

Results

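The Timm and Tomm genes of mouse quadriceps were taken as all gene symbols that start with Timm or Tomm in the raw count table, which gave 24 of 13320 genes, and were followed in all 4 groups of the study. They name the translocases of the inner and outer mitochondrial membrane. Nearly all mitochondrial proteins are made in the cytosol and enter through the TOM complex of the outer membrane, built around the Tomm40 channel with the receptors Tomm20, Tomm22 and Tomm70a and the small subunits Tomm5, Tomm6 and Tomm7. Proteins with a cleavable presequence then pass the TIM23 complex of the inner membrane. Hydrophobic carrier proteins are instead escorted by small Tim chaperones to the TIM22 complex, which inserts them into that membrane. In skeletal muscle, whose fibres depend on oxidative metabolism, this machinery supplies the respiratory chain and the carriers that exchange ATP and metabolites with the cytosol.

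Messenger RNA of quadriceps was sequenced in 16 libraries from male CD2F1 mice, aged 8 weeks at the start, in 4 groups of 4. The splenic C26 group received cells of C26, a mouse colon carcinoma line that causes muscle wasting, by injection into the spleen as a model of spread to the liver. Its sham group was operated on and received saline. The subcutaneous C26 group received the same cells by subcutaneous injection, and what its control group received is not in the labels. Titles of sham and splenic C26 libraries begin alike, as do those of control and subcutaneous C26, so each tumour group was set against the tumour-free group whose titles match its own. The sources used here give neither the time of sampling nor whether animals were pooled. Nothing in the labels says that each library is a separate animal, and the p-values therefore measure only the scatter of these samples, part of which may be technical.

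Total counts ran from 25.9 to 34.9 M per library. The skeletal muscle label fitted the markers, since all 9 muscle fibre markers were measured, with summed levels of 90785 to 233999 CPM (counts scaled to library size). On the first principal component, which held 65.4% of the variance, scores of the tumour-free libraries ran from -60.76 to -55.43 and those of 6 tumour libraries from 64.6 to 93.26. Splenic C26 replicate 1 (-6.31) and subcutaneous C26 replicate 3 (6) lay between them, and calls of members that changed without these 2 libraries are given with their values. The 6 hepatocyte markers summed to 120 CPM in splenic C26 replicate 1 and 26.5 to 209 CPM in the control group, against 0.376 to 3.14 CPM in the other 11 libraries. Fabp1 was at 0 in 8 of those 11. The 6 neutrophil markers summed to 161 CPM in splenic C26 replicate 3, 44.7 CPM in control replicate 1 and 0.542 to 24.7 CPM elsewhere, with Camp at 0 in 10 libraries. The 2 measured proliferation markers reached 61.4 CPM in subcutaneous C26 replicate 4. Summed levels of the 4 fibro-adipogenic markers were 316 to 900 CPM in splenic C26 against 941 to 1058 CPM in sham, and 342 to 667 CPM in subcutaneous C26 against 665 to 1297 CPM in control. Sums of the 3 adipocyte markers were 23.4 to 638 CPM (sham), 32.9 to 84.3 CPM (splenic C26), 68.7 to 433 CPM (control) and 73.4 to 155 CPM (subcutaneous C26). Among them Ucp1, which marks mitochondria-rich brown fat, was 1.57 to 297 CPM in sham and 13.5 to 199.8 CPM in control but 0.415 to 2.57 CPM in the 8 tumour libraries. Sums of the 2 measured red cell markers were 4.02 to 5.63 CPM (sham), 11.4 to 43.81 CPM (splenic C26), 3.7 to 12.4 CPM (control) and 8.09 to 114 CPM (subcutaneous C26). The part of these other cells in the results was not tested, and in whole muscle fewer cells of a type and less RNA per cell cannot be told apart.

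Members were called in both directions in the tumour groups, as were genes over the whole table. Tomm6, Timm10, Timm10b and Tomm40 rose and Tomm40l, Timm22, Timmdc1 and Tomm5 fell in both tumour comparisons, tested with edgeR's quasi-likelihood test and Benjamini-Hochberg adjustment over all 13320 genes at 0.05. In splenic C26 against sham, 5 members rose, 4 fell and 15 did not pass. In subcutaneous C26 against control, 4 rose, 5 fell and 15 did not pass. The share called was thus 37.5% of members in each comparison, beside 52.0% of all genes in splenic C26 (28.1% higher, 23.9% lower) and 50.0% in subcutaneous C26 (27.0% higher, 23.1% lower). The median log2 fold change of the 24 members was 0.06 in splenic C26 and -0.06 in subcutaneous C26, beside -0.03 and -0.02 over all genes. The shares of members and of all genes were not tested against each other. Upper-quartile scaling moved the median of all genes to -0.24 and -0.26 and the members' median to -0.17 and -0.30, which left members 4 higher and 7 lower in splenic C26 and 0 higher and 9 lower in subcutaneous C26. The share of all calls that were higher went under that scaling from 54.0% to 38.5% in splenic C26 and from 53.9% to 34.9% in subcutaneous C26. No library of 1 group overlapped the other group for 7 of 24 members in each comparison, where the background was 42.2% and 45.9% of all genes.

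**Figure D1:**
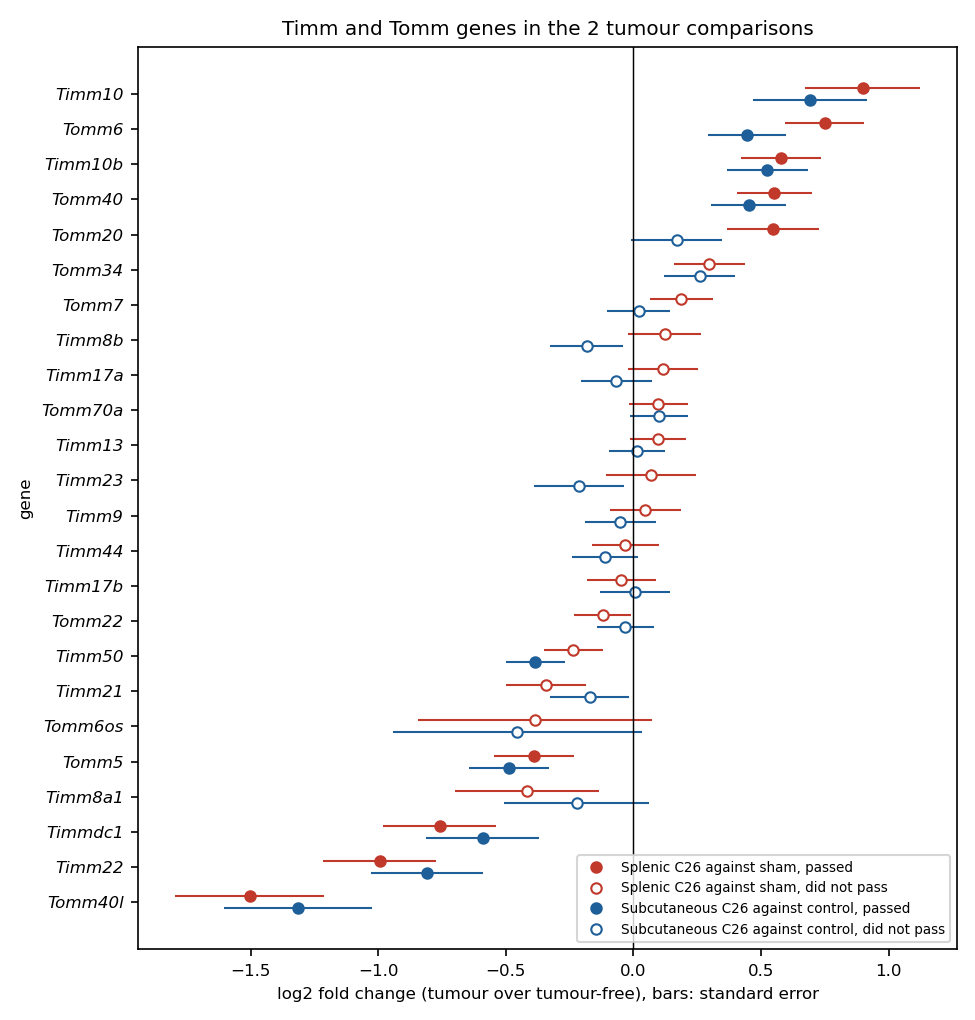
Log2 fold change with its standard error (horizontal axis) of the 24 Timm and Tomm genes (vertical axis, ordered by the splenic C26 effect) in splenic C26 against sham (red) and subcutaneous C26 against control (blue), 4 libraries a group. Filled points passed an adjusted p of 0.05; Timm10 (0.90 and 0.69) stands at the top and Tomm40l (-1.5 and -1.32) at the bottom, while most TIM23 genes lie near 0.

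RefSeq promoter sequences (GRCm38.p6) were matched for 21 of the 24 members; Timm21, Tomm40l and Tomm7 had none in the table. The stretches before the start site are shown for 4 genes that moved in the tumour groups: Timm22 and Timmdc1, which fell in both comparisons, Timm10, which rose in both, and Tomm20, which rose in splenic C26. They cover chr11:76406675-76406924 (plus strand, Timm22), chr16:38522664-38522913 (minus strand, Timmdc1), chr2:84826771-84826996 (plus strand, Timm10) and chr8:126945922-126946171 (minus strand, Tomm20). Each is written 5′ to 3′ along its gene. Capitals mark matches to the motifs of the nuclear factors that are known to drive many mitochondrial genes, NRF-1 (GCGCA, any base, then GCGC) and the ETS factor GABP (CCGGAAG), and to the E-box (CACGTG), on either strand.
Timm22: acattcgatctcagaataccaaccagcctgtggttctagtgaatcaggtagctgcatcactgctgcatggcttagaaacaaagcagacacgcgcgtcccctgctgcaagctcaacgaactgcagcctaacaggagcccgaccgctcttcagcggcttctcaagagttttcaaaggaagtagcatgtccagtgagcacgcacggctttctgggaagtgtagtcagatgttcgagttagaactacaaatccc
Timmdc1: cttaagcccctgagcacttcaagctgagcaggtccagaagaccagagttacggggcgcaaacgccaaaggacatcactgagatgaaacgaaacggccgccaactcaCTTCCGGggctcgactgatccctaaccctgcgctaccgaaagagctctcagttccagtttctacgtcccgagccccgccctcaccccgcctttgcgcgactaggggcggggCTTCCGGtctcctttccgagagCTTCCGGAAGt
Timm10: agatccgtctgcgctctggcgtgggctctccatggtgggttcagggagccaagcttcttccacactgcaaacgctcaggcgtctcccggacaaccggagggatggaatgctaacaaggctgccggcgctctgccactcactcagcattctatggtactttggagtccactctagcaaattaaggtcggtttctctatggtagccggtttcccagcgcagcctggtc
Tomm20: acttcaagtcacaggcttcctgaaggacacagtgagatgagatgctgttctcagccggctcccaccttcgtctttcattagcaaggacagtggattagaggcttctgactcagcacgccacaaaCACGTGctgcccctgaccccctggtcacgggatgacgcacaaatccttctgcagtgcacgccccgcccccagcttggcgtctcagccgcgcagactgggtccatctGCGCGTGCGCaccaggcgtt
The Timmdc1 stretch held 4 ETS matches, starting at bases -144, -33, -11 and -8 from the start site, the last pair overlapping. Tomm20 held an NRF-1 match at -20 and an E-box at -126. The Timm22 and Timm10 stretches shown held no match.

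The motifs were counted over 300 bases, 250 before to 50 after the start. The ETS motif was in 8 of the 21 member promoters (Timm10, Timm10b, Timm23, Timm8b, Timmdc1, Tomm22, Tomm34 and Tomm70a), beside 9.14% of all 27025 promoters and 17.33% of the 10122 promoters of measured genes. Of those 8 genes, Timm10 and Timm10b rose, Timmdc1 fell and the other 5 did not pass in either comparison. The NRF-1 motif was in 2 members (Timm8b and Tomm20), beside 4.82% of all promoters and 10.25% of those of measured genes, and the E-box in 5 (Timm10, Timm8a1, Timm9, Tomm20 and Tomm6os), beside 7.24% and 10.24%. AAGGTCA, the element of estrogen-related receptors, was in 3 (Timm23, Timm44 and Timm8b), beside 4.65% and 3.16%. Neither GTAAACA, a FoxO motif (3.52% of all promoters and 2.44% of those of measured genes), nor TGATGNAAN, a composite ATF4 motif (4.04% and 2.18%), was in a member's window. At such low shares, absence from 21 windows says little. These letters describe the windows and say nothing of binding.

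Among the 7 TOM complex genes, 3 rose and 1 fell in splenic C26, and 2 rose and 1 fell in subcutaneous C26. Beside them, 28.1% of all genes rose and 23.9% fell in splenic C26, and 27.0% rose and 23.1% fell in subcutaneous C26. Tomm40 encodes the channel through which nearly all imported precursors cross the outer membrane (chr7:19701313-19715438 on mm10, minus strand). Its level, in CPM after TMM scaling as for every level given per library, was 29.5, 31.3, 29.0 and 31.2 in sham replicates 1 to 4 and 29.1, 52.6, 47.1 and 48.5 in splenic C26 replicates 1 to 4. It was 27.7, 26.3, 30.9 and 30.6 in control and 38.2, 43.4, 36.7 and 39.5 in subcutaneous C26. Every subcutaneous C26 library was above every control library, and splenic C26 replicate 1 alone sat among the sham libraries. Tomm40 rose 1.47-fold in splenic C26 (log2 0.55 ± 0.15 SE, edgeR adjusted p = 0.00607) and 1.37-fold in subcutaneous C26 (0.45 ± 0.15, edgeR adjusted p = 0.0186). The subcutaneous call was lost without control replicate 1 (edgeR adjusted p = 0.0563), control replicate 2 (0.0674), subcutaneous C26 replicate 2 (0.0808) or subcutaneous C26 replicate 4 (0.0503). It was also lost under upper-quartile scaling (log2 0.21, edgeR adjusted p = 0.146).

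Tomm6 and Tomm5, small single-span subunits that sit beside the Tomm40 channel, changed in opposite directions. Tomm6 (chr17:47686646-47688386, minus strand) measured 47.7, 46.8, 51.5 and 52.1 CPM in sham and 52.8, 88.8, 103 and 88.0 CPM in splenic C26. It measured 53.4, 48.5, 53.4 and 53.8 CPM in control and 70.1, 77.8, 69.5 and 67.6 CPM in subcutaneous C26. The groups did not overlap in either comparison, although splenic C26 replicate 1 was only just above the highest sham library. Tomm6 rose 1.68-fold in splenic C26 (log2 0.75 ± 0.15 SE, edgeR adjusted p = 0.00128) and 1.36-fold in subcutaneous C26 (0.45 ± 0.15, edgeR adjusted p = 0.0244). The subcutaneous call was lost without control replicate 1 (edgeR adjusted p = 0.0519), control replicate 2 (0.0764), subcutaneous C26 replicate 1 (0.0519) or subcutaneous C26 replicate 2 (0.0938), with only genes of at least 5 CPM (0.0524) and under upper-quartile scaling (log2 0.21, 0.164). Of the exon bases of Tomm6, 76.0% lie in exons of the annotation Gm21981 on the same strand and 19.4% in the antisense RNA Tomm6os, and reads of these could not be told apart.

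Tomm5 (chr4:45105208-45108114, minus strand) measured 22.8, 26, 24 and 22.7 CPM in sham and 18.2, 20.9, 20.1 and 13.8 CPM in splenic C26. In control it measured 23.1, 22.9, 24.4 and 21.4 CPM, and in subcutaneous C26 14.2, 13.9, 22.4 and 15.0 CPM. All splenic C26 libraries were below all sham libraries, whereas subcutaneous C26 replicate 3 lay within the control range. Tomm5 fell 1.31-fold in splenic C26 (log2 -0.39 ± 0.16 SE, edgeR adjusted p = 0.0469) and 1.40-fold in subcutaneous C26 (-0.49 ± 0.16, edgeR adjusted p = 0.0181). The splenic call sat at the threshold: it was lost without any 1 of the 4 sham libraries (edgeR adjusted p = 0.0633 to 0.109), without splenic C26 replicate 1 (0.0562) or 4 (0.134), under RLE scaling (0.0526) and in the fit of the 8 libraries alone (0.0649). Without 4 libraries left out together for hepatocyte, neutrophil or proliferation markers (splenic C26 replicates 1 and 3, control replicate 1 and subcutaneous C26 replicate 4) edgeR's adjusted p was 0.0804 in splenic C26 and 0.0616 in subcutaneous C26. Control replicates 2 to 4, with hepatocyte markers, and sham replicate 2, with the highest adipocyte sum, stayed in that fit.

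Of the TOM receptors, Tomm20, which recognises presequences, passed in 1 comparison. It measured 51.5, 51.6, 48.4 and 51.0 CPM in sham and 41.0, 72.0, 92.6 and 90.4 CPM in splenic C26. It measured 49.0, 51.7, 51.2 and 51.0 CPM in control and 54.4, 60.4, 54.7 and 58.5 CPM in subcutaneous C26. The splenic C26 group straddled sham, with replicate 1 below all 4 sham libraries and the other 3 above them, while subcutaneous C26 lay a little above control without overlap. Tomm20 rose 1.46-fold in splenic C26 (log2 0.55 ± 0.18 SE, edgeR adjusted p = 0.0192), a call that was lost without splenic C26 replicate 3 (0.0708) or 4 (0.0691), in the fit of the 8 libraries alone (0.0763) and under upper-quartile scaling (0.0873). The log2 fold change in subcutaneous C26 was 0.17 ± 0.18 (edgeR adjusted p = 0.447). The promoter stretch of Tomm20 is the one printed with an NRF-1 match and an E-box.

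The other TOM genes did not pass in either comparison in the main fit. Under upper-quartile scaling Tomm22 passed as lower in splenic C26 (log2 -0.33, edgeR adjusted p = 0.0249). Tomm22, the receptor that organises the complex, had means of 30.6 ± 0.951 CPM in sham, 28.2 ± 2.76 in splenic C26, 28.4 ± 1.99 in control and 27.8 ± 3.89 in subcutaneous C26 (SD, n = 4 each). For Tomm70a, the receptor for carrier precursors, the means were 87.6 ± 5.58, 93.7 ± 12.5, 83.6 ± 1.55 and 89.7 ± 10.3 CPM in the same order. For Tomm7, the third small subunit, the means were 30.9 ± 0.953, 35.2 ± 6.82, 32.7 ± 1.80 and 33.2 ± 1.70 CPM. Splenic C26 replicate 1 (25.2 CPM) was below sham for Tomm7 and replicates 2 to 4 (36.4, 39.7 and 39.3 CPM) above it, and without replicate 1 the gene passed as higher (log2 0.33, edgeR adjusted p = 0.00342).

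In the main fit none of the 6 TIM23 genes passed in splenic C26, and 1 of 6, Timm50, passed in subcutaneous C26. Over all genes 52.0% and 50.0% were called, and the 6 genes were not tested against that share. Timm23, the channel-forming subunit, measured 66.0, 63.3, 70.5 and 69.4 CPM in sham and 46.8, 73.9, 91.5 and 70.0 CPM in splenic C26. It measured 61.6, 66.4, 77.7 and 82.9 CPM in control and 51.4, 65.4, 76.4 and 55.5 CPM in subcutaneous C26. The splenic C26 libraries spread to both sides of sham, and the subcutaneous C26 libraries lay partly within control. The log2 fold changes of Timm23 were 0.07 ± 0.18 SE (edgeR adjusted p = 0.76) and -0.22 ± 0.18 (0.32).

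Timm17a and Timm17b encode alternative partners of Timm23 in the channel. Timm17a measured 91.1, 90.2, 89.7 and 97.4 CPM in sham, 70.8, 108, 116 and 104 CPM in splenic C26, 86.4, 90.7, 105 and 95.2 CPM in control and 83.5, 97.6, 99.1 and 80.1 CPM in subcutaneous C26. Timm17b measured 21.5, 18.8, 21.7 and 20.7 CPM in sham, 17, 22.2, 21 and 19.6 CPM in splenic C26, 18.5, 19.9, 21.5 and 20.7 CPM in control and 19.2, 21.3, 25.2 and 15.3 CPM in subcutaneous C26. Timm17a in splenic C26 split as Tomm20 and Tomm7 did, with replicate 1 below sham and the rest above it, and without replicate 1 it passed as higher (log2 0.26, edgeR adjusted p = 0.0379). Timm17b overlapped its tumour-free group in both tumour groups. Fold changes of Timm17a were 0.12 ± 0.14 and -0.07 ± 0.14 on the log2 scale, and those of Timm17b -0.05 ± 0.14 and 0.01 ± 0.14.

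Timm44, which tethers the import motor to the channel, measured 60.5, 58.9, 65.3 and 65.4 CPM in sham and 53.6, 63.3, 70.8 and 57.0 CPM in splenic C26. It measured 59.3, 58.7, 65.5 and 66.4 CPM in control and 47.5, 56.6, 73.8 and 53.4 CPM in subcutaneous C26. Both tumour groups reached below and above their tumour-free group, and the log2 fold changes were -0.03 ± 0.13 and -0.11 ± 0.13. Without the 2 intermediate libraries, Timm44 and Timm23 passed as lower in subcutaneous C26 (log2 -0.25, edgeR adjusted p = 0.0342, and -0.33, 0.0343).

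Timm50, the receptor that hands precursors from TOM to TIM23 (chr7:28305516-28312072, minus strand), measured 26, 26.2, 27.0 and 30.1 CPM in sham and 22.7, 24.6, 22.9 and 22.6 CPM in splenic C26. In control it measured 30.5, 28.1, 29.5 and 31.0 CPM, and in subcutaneous C26 21.4, 21.2, 29.0 and 19.7 CPM. All splenic C26 libraries were below all sham libraries without a call (log2 -0.24 ± 0.12 SE, edgeR adjusted p = 0.0964), although the gene passed as lower without the 2 intermediate libraries (-0.23, 0.0262). Timm50 fell 1.31-fold in subcutaneous C26 (log2 -0.39 ± 0.12, edgeR adjusted p = 0.0126), where replicate 3 was within the control range. Timm21, which links TIM23 to TOM and to respiratory complexes, did not pass (means 23.7 ± 1.20, 18.6 ± 4.82, 22.8 ± 1.45 and 20.3 ± 2.86 CPM in sham, splenic C26, control and subcutaneous C26). It passed as lower in splenic C26 without replicate 1 (log2 -0.40, edgeR adjusted p = 0.0423) or replicate 2 (-0.49, 0.0155). Upper-quartile scaling added lower calls for Timm21 and Timm50 in splenic C26 and for Timm17a, Timm23 and Timm44 in subcutaneous C26.

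Both TIM22 genes changed in both comparisons, in opposite directions, where 52.0% and 50.0% of all genes were called. Timm22, the channel-forming subunit that inserts carrier proteins into the inner membrane (chr11:76406952-76416292, plus strand), measured 22.9, 22.3, 26.2 and 25.4 CPM in sham and 15.1, 12.6, 12.6 and 8.27 CPM in splenic C26. It measured 21.7, 24.7, 22.3 and 25.3 CPM in control and 10.6, 10.9, 21.7 and 10.6 CPM in subcutaneous C26. Each splenic C26 library was well below every sham library, and so were 3 of 4 subcutaneous C26 libraries against control, with replicate 3 (21.70 CPM) just under the lowest control library (21.72 CPM). Timm22 fell 1.99-fold in splenic C26 (log2 -0.995 ± 0.22 SE, edgeR adjusted p = 0.00213) and 1.75-fold in subcutaneous C26 (-0.81 ± 0.22, edgeR adjusted p = 0.00746). Both calls held in every alternative run.

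Timm10b encodes the small Tim protein that docks carrier precursors on the TIM22 complex (chr7:105640056-105643637, plus strand). It measured 10.6, 12.4, 11.3 and 13.5 CPM in sham and 12.6, 19.5, 18.3 and 21 CPM in splenic C26. It measured 11.6, 13.7, 11.3 and 12.1 CPM in control and 19.5, 18.8, 13.7 and 18.1 CPM in subcutaneous C26. Splenic C26 replicate 1 was within the sham range and subcutaneous C26 replicate 3 only just above control, with the other 6 tumour libraries clear of theirs. Timm10b rose 1.49-fold (log2 0.58 ± 0.16 SE, edgeR adjusted p = 0.0072) and 1.44-fold (0.53 ± 0.16, edgeR adjusted p = 0.0127). The subcutaneous call was lost without subcutaneous C26 replicate 1 (edgeR adjusted p = 0.0523) or 2 (0.0565) and under upper-quartile scaling (log2 0.28, 0.0987). In exon bases 10.5% of Timm10b overlaps the annotation Gm45799 on the same strand.

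Of the 5 small Tim chaperones of the intermembrane space, Timm10 rose in both comparisons and the other 4 did not pass. The share of all genes called was 52.0% in splenic C26 and 50.0% in subcutaneous C26. Timm9 and Timm10 proteins form 1 chaperone ring for carrier precursors. Timm10 (chr2:84826997-84830213, plus strand) measured 9.63, 12.2, 10.1 and 12.5 CPM in sham and 12.8, 19.3, 24.1 and 26.7 CPM in splenic C26. It measured 11.8, 11.1, 11 and 9.42 CPM in control and 16.7, 16.7, 11.9 and 24.7 CPM in subcutaneous C26. Neither tumour group overlapped its tumour-free group, and splenic C26 replicate 1 and subcutaneous C26 replicate 3 were each the lowest of their group. Timm10 rose 1.86-fold in splenic C26 (log2 0.90 ± 0.22 SE, edgeR adjusted p = 0.0044) and 1.62-fold in subcutaneous C26 (0.69 ± 0.22, edgeR adjusted p = 0.0187). Without control replicate 4 edgeR's adjusted p for the subcutaneous comparison was 0.0510, and without subcutaneous C26 replicate 4 it was 0.105 (log2 0.46). Under upper-quartile scaling edgeR's adjusted p for Timm10 in that comparison was 0.0787 (log2 0.45). Its printed promoter stretch held no match, and its 3 ETS matches lie beyond that stretch, 1 of them at -16 and the others after the start.

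Timm9 measured 12.1, 10.9, 12.9 and 12.3 CPM in sham and 10.8, 12.2, 16 and 10.8 CPM in splenic C26. It measured 12.1, 11.1, 13.8 and 11.7 CPM in control and 11.8, 10.7, 13.5 and 11 CPM in subcutaneous C26. The groups overlapped in both comparisons, with log2 fold changes of 0.05 ± 0.14 and -0.05 ± 0.14. Timm13, Timm8b and Timm8a1 belong to the second kind of chaperone ring. Timm13 had means of 27.5 ± 2.68, 29.3 ± 4.15, 26.8 ± 0.726 and 27.1 ± 1.02 CPM in sham, splenic C26, control and subcutaneous C26. For Timm8b the means were 53.7 ± 2.90, 58.4 ± 13.9, 56.8 ± 3.11 and 50.0 ± 5.09 CPM, and for Timm8a1, at a low level, 1.78 ± 0.164, 1.33 ± 0.266, 1.43 ± 0.427 and 1.23 ± 0.469 CPM. None of these 3 passed. Timm8b passed as higher in splenic C26 without replicate 1 (log2 0.26, edgeR adjusted p = 0.0471). It passed as lower in subcutaneous C26 without the 2 intermediate libraries (log2 -0.26, edgeR adjusted p = 0.0359) and under upper-quartile scaling (-0.42, 0.0111).

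The symbols outside the complexes held the largest change. Tomm40l, a paralogue of the Tomm40 channel (chr1:171216011-171222514, minus strand), measured 39.4, 40.2, 39.3 and 41.6 CPM in sham and 20.6, 16.2, 11 and 8.74 CPM in splenic C26. It measured 38.0, 39.5, 44.9 and 44.0 CPM in control and 13.6, 12.2, 30.0 and 11.2 CPM in subcutaneous C26. Every tumour library was below every library of its tumour-free group, and splenic C26 replicate 1 and subcutaneous C26 replicate 3 were the highest tumour libraries. Tomm40l fell 2.83-fold in splenic C26 (log2 -1.5 ± 0.29 SE, edgeR adjusted p = 0.000949) and 2.49-fold in subcutaneous C26 (-1.32 ± 0.29, edgeR adjusted p = 0.00217), and both calls held in every alternative run. Exons of Nr1i3 on the opposite strand cover 64.3% of its exon bases, and without a stated strand setting reads of the pair could not be told apart.

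Timmdc1, an assembly factor of respiratory complex I named for its resemblance to the Tim proteins (chr16:38498347-38522663, minus strand), measured 32.9, 25.6, 30.1 and 32.1 CPM in sham and 22.3, 20.5, 16.2 and 12.2 CPM in splenic C26. It measured 27.1, 28.8, 32.3 and 33.9 CPM in control and 15.7, 16.3, 31.9 and 17.1 CPM in subcutaneous C26. All splenic C26 libraries were below sham, and 3 of 4 subcutaneous C26 libraries were below control, with replicate 3 inside the control range. Timmdc1 fell 1.69-fold in splenic C26 (log2 -0.76 ± 0.22 SE, edgeR adjusted p = 0.0107) and 1.51-fold in subcutaneous C26 (-0.59 ± 0.22, edgeR adjusted p = 0.037). The subcutaneous call was lost without control replicate 3 (edgeR adjusted p = 0.0753) or 4 (0.0839), without subcutaneous C26 replicate 1 (0.0760), 2 (0.0756) or 4 (0.0695), in the fit of the 8 libraries alone (0.0511) and without the 4 libraries left out together for markers of other cells (0.0707). Its printed promoter stretch is the one with 4 ETS matches.

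Tomm34, a cytosolic co-chaperone, had means of 11.2 ± 0.946, 13.7 ± 2.86, 11 ± 0.843 and 13.2 ± 1.02 CPM in sham, splenic C26, control and subcutaneous C26 and did not pass (log2 0.30 ± 0.14 and 0.26 ± 0.14). It passed as higher in splenic C26 without replicate 3 (log2 0.40, edgeR adjusted p = 0.0231). Tomm6os, the antisense RNA at Tomm6, was under 1 CPM in all libraries (0.0952 to 0.683 CPM) and did not pass.

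**Figure D2:**
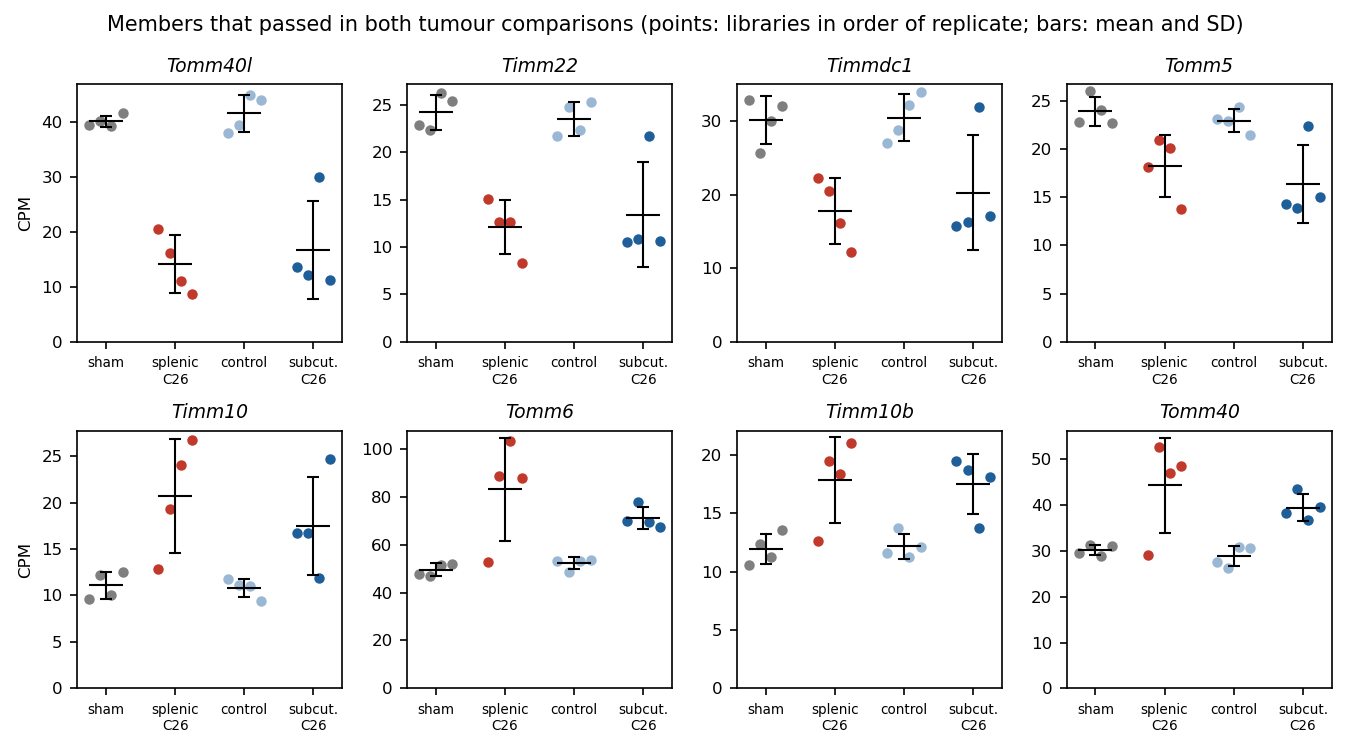
CPM (vertical axes, from 0) of the 8 members called in both tumour comparisons, 1 point per library in the order of replicates within sham, splenic C26, control and subcutaneous C26; bars are the mean and SD, n = 4. The upper row fell and the lower row rose; splenic C26 replicate 1 and subcutaneous C26 replicate 3 lie toward the tumour-free libraries in most panels, as at 20.6 and 30.0 CPM for Tomm40l.

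Levels of different genes can be compared only per length. The deposited log2 values served for this, because they equalled log2 CPM plus 1 constant per gene and 1 per library (residual SD 0.00179 over 8268 well-counted genes, which leave out Tomm6os and Timm8a1), and the constant was related to exon length across genes (r = 0.797, a description over 8002 genes that are not independent). The union of annotated exons was set beside it as a second length, an alternative chosen after seeing the data. On that per-length log2 scale the members spanned, in sham, from -2.28 for Tomm6os and 0.64 for Timm8a1 to 6.65 for Timm17a and 6.67 for Timm8b. With union exon lengths Tomm6os (0.186 CPM per kb) and Timm8a1 (1.25) were again lowest and Timm8b (104) highest, but Timm17a (11.7) was in the middle. Timm23 (5.86, or 37.7 CPM per kb) was above Timm22 (2.99, or 7.61) and Tomm6 (5.62, or 43.78) above Tomm5 (5.12, or 27.5) on both scales. Other orders turned with the length: Tomm20 (3.35) was the lowest TOM gene on the deposited scale and Tomm40 (6.7 CPM per kb) with union lengths, and Tomm40l was below Tomm40 on the first (3.78 against 4.18) and above it on the second (7.82 against 6.7).

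For some pairs with at least 1 member called in both comparisons, the ratio between partner genes also differed between tumour and tumour-free libraries. These differences follow from the calls and are no separate result. The ratios are on the deposited per-length scale, the pairs were picked after values were seen, and no test was made. Another length multiplies a pair's ratios by about the same factor in every group, so the levels of these ratios depend on the length and their relative differences between groups hardly do. Tomm40l to Tomm40 was 0.762, 0.734, 0.775 and 0.760 in sham and 0.404, 0.176, 0.134 and 0.103 in splenic C26. It was 0.784, 0.857, 0.827 and 0.822 in control and 0.203, 0.161, 0.467 and 0.162 in subcutaneous C26. Every tumour-free library was at 0.734 or above and every tumour library at 0.467 or below; with union exon lengths the means were 1.17 in sham, 0.314 in splenic C26, 1.27 in control and 0.382 in subcutaneous C26.

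The ratio of Timm22, the carrier translocase channel, to its docking partner Timm10b was 0.664 ± 0.079 in sham and 0.239 ± 0.109 in splenic C26, and 0.630 ± 0.041 in control and 0.268 ± 0.164 in subcutaneous C26 (SD, n = 4). Timm10 to Timm9, which share a chaperone ring, was 1.56 ± 0.28 and 2.82 ± 0.92, and 1.5 ± 0.18 and 2.55 ± 0.94. The lowest splenic C26 library (1.99) was above the highest sham library (1.89) for that ratio, whereas subcutaneous C26 replicate 3 (1.48) lay within control. For Tomm6 to Tomm5 the means were 1.42 ± 0.14 and 3.17 ± 0.99, and 1.55 ± 0.12 and 3.08 ± 0.71, without overlap. Timm17a to Timm17b, the alternative TIM23 partners, had means of 7.99 in sham, 8.86 in splenic C26, 8.35 in control and 8.07 in subcutaneous C26. Tumour and tumour-free ranges overlapped in both comparisons for this pair, Timm23 to Timm50, Tomm20 to Tomm22, Timm8b to Timm13 and Tomm20 to Tomm70a. With union exon lengths the sham means were 2.299 for Timm22 to Timm10b, 4.88 for Timm10 to Timm9, 1.6 for Tomm6 to Tomm5 and 1.45 for Timm17a to Timm17b.

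**Figure D3:**
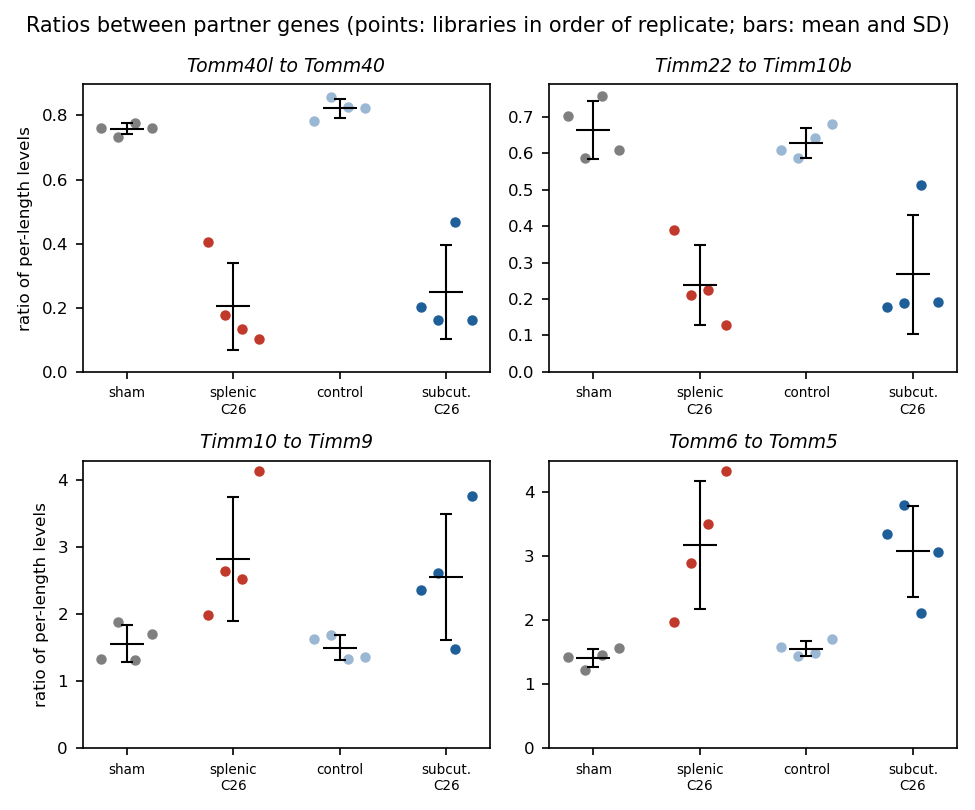
Ratio of per-length levels (vertical axes, from 0) of 4 pairs of import genes, 1 point per library by group and replicate, with mean and SD (n = 4). Tomm40l to Tomm40 and Timm22 to Timm10b were lower and Tomm6 to Tomm5 higher in every tumour library; Timm10 to Timm9 overlapped in subcutaneous C26, where 1 library was at 1.48.

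The size of the changes differed between libraries of a tumour group. Over the 5 members called higher in splenic C26, the median log2 distance from the sham mean was 0.08 in replicate 1 and 0.80 to 0.87 in replicates 2 to 4. Over the 4 members called lower it was -0.55 in replicate 1 and -1.42 to -0.74 in the others. In subcutaneous C26 the 4 higher members had medians of 0.26 in replicate 3 and 0.52 to 0.61 in the others, and the 5 lower members -0.04 in replicate 3 and -0.95 to -0.83 in the others. Over all 24 members the median absolute log2 distance was 0.25, 0.28, 0.42 and 0.50 in splenic C26 replicates 1 to 4 and 0.31, 0.33, 0.14 and 0.37 in subcutaneous C26 replicates 1 to 4, so splenic C26 replicates 1 and 2 were close on that measure. Splenic C26 replicate 1 and subcutaneous C26 replicate 3 are the ones between the groups on the first principal component. Splenic C26 replicate 1, the library with hepatocyte markers at 120 CPM, had the smallest change of its group in the called direction for 8 of 9 called members, all but Tomm5. Subcutaneous C26 replicate 3, whose hepatocyte markers summed to 0.745 CPM and neutrophil markers to 1.99 CPM, had it for 8 of 9, all but Tomm6. Without both libraries, 8 members passed as higher in splenic C26 in place of 5, and 8 as lower in subcutaneous C26 in place of 5. The higher calls added in splenic C26 were Tomm7 (log2 0.32, edgeR adjusted p = 0.00205), Timm17a (0.25, 0.0291) and Timm8b (0.26, 0.0327). Lower calls were added there too, for Timm21 (-0.41, edgeR adjusted p = 0.0291) and Timm50 (-0.23, 0.0262). Calls over all genes went in the same setting from 52.0% to 65.3% and from 50.0% to 62.6%. They were then 4329 higher and 4366 lower in splenic C26, and 4134 higher and 4198 lower in subcutaneous C26.

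**Figure D4:**
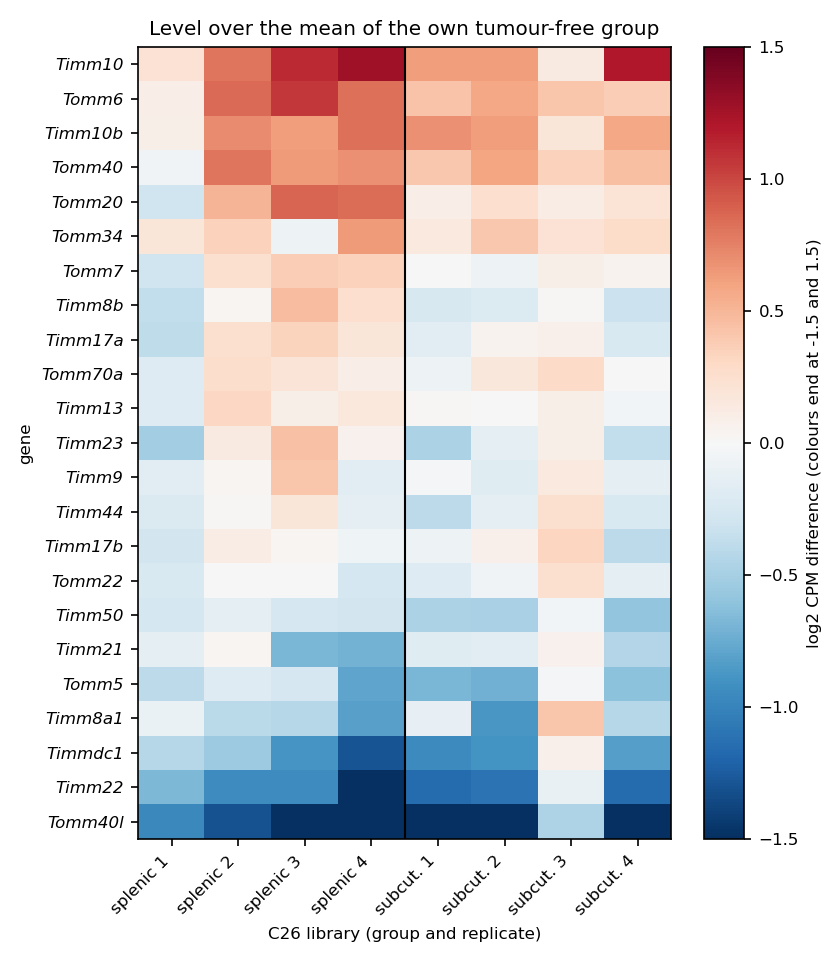
Log2 CPM of 23 members (rows; Tomm6os, under 1 CPM, is not drawn) in each tumour library (columns) minus the mean of its own tumour-free group, red above and blue below, with colours that end at -1.5 and 1.5. The columns of splenic C26 replicate 1 and subcutaneous C26 replicate 3 are the palest for most called members. Over members called higher, their medians were 0.08 and 0.26, against 0.80 to 0.87 and 0.52 to 0.61 in the other libraries of their groups. Over members called lower, they were -0.55 and -0.04, against -1.42 to -0.74 and -0.95 to -0.83.

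The 2 tumour sites were compared by the difference between their effects. No member passed (edgeR), none had an unadjusted p under 0.05, and DESeq2 also called none. Over all 13320 genes edgeR called 0 (0%) and DESeq2 84 higher and 2 lower (0.646%), and 851 genes (6.39%) had an unadjusted p under 0.05 by edgeR. The largest differences among the members were those of Tomm20 (log2 0.38 ± 0.25 SE, edgeR adjusted p = 0.897), Timm8b (0.31 ± 0.20, 0.895) and Tomm6 (0.30 ± 0.22, 0.906), each in the direction of a higher effect in splenic C26. Without the 2 intermediate libraries the difference for Tomm20 passed (log2 0.56, edgeR adjusted p = 0.0411), as did 1.93% of all genes in that setting, and it was the only member that did so in any alternative run. For the genes that fell, differences were -0.19 ± 0.40 for Tomm40l and -0.19 ± 0.31 for Timm22, which are smaller than their standard errors. The calls of Tomm20 in splenic C26 alone and of Timm50 in subcutaneous C26 alone are therefore not shown to differ by site.

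Sham and control, the tumour-free groups, did not differ in any member by edgeR's test, and none had an unadjusted p under 0.05, where 1 of all genes passed (0.00751%) and 285 had an unadjusted p under 0.05. The groups did not overlap for 0 of 24 members, beside 4.86% of all genes. Over the 24 members the log2 differences of sham from control ran from -0.12 for Timm50 to 0.57 for Tomm6os, with a median of 0.01. DESeq2, limma-voom and limma-trend also called no member, beside 0.435%, 0.00751% and 0.0526% of all genes. Hepatocyte markers summed to 0.376 to 3.14 CPM in sham and 26.5 to 209 CPM in control.

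The rest of the import machinery, 28 other genes listed with earlier results known, also held calls in both directions. In splenic C26, 6 rose, 5 fell and 17 did not pass, and in subcutaneous C26 5 rose, 5 fell and 18 did not pass, with median log2 fold changes of 0.08 and -0.09. Gfer, the sulfhydryl oxidase that recharges the disulfide relay for small Tim proteins, rose most, from 12.1 ± 1.45 CPM in sham to 32.7 ± 10.8 in splenic C26 and from 13.4 ± 0.806 in control to 31.9 ± 7.98 in subcutaneous C26 (log2 1.43 ± 0.23 SE, edgeR adjusted p = 0.000306, and 1.25 ± 0.23, 0.000699). Grpel1, the nucleotide exchange factor of the import motor, rose from 65.1 ± 2.76 to 122 ± 41.6 CPM and from 66.9 ± 3.46 to 106 ± 16.8 CPM (log2 0.90, edgeR adjusted p = 0.00248, and 0.66, 0.0156). Immp1l, an inner membrane peptidase, passed in subcutaneous C26 only (log2 0.64 ± 0.17, edgeR adjusted p = 0.00605) and was 0.30 in splenic C26 (0.141); its difference between sites did not pass.

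Those that fell included Mtx3, a metaxin of the outer membrane, from 11.7 ± 1.83 to 7.38 ± 1.47 CPM in splenic C26 and from 13.3 ± 2.67 to 7.35 ± 0.865 CPM in subcutaneous C26 (log2 -0.66 ± 0.18 SE, edgeR adjusted p = 0.00636, and -0.85 ± 0.18, 0.00151). Dnajc15, a J-protein of the import motor, fell from 43 ± 4.84 to 30.7 ± 3.14 CPM and from 44.9 ± 3.69 to 31.5 ± 7.59 CPM (edgeR adjusted p = 0.0119 and 0.00999). Agk, a lipid kinase that is also a subunit of the TIM22 complex, fell from 5.66 ± 0.812 to 4.26 ± 0.714 CPM and from 6.15 ± 0.324 to 4.01 ± 0.537 CPM (log2 -0.41, edgeR adjusted p = 0.0479, and -0.62, 0.00679). In the TIM22 complex, then, Timm22 and Agk fell and Timm10b rose. Of 7 mitochondrial proteases, 5 rose and 1 fell in splenic C26 and 4 rose and 1 fell in subcutaneous C26. Of 6 inner membrane carriers, which use the TIM22 route, and 3 outer membrane porins (Vdac1, Vdac2 and Vdac3), which do not, 1 carrier rose and 2 fell in splenic C26 and 0 rose and 3 fell in subcutaneous C26, and no porin passed. The lists of proteases and of carriers with porins were made with earlier results known and were not tested against all genes. Over all genes, 28.1% rose and 23.9% fell in splenic C26, and 27.0% rose and 23.1% fell in subcutaneous C26.

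**Figure D5:**
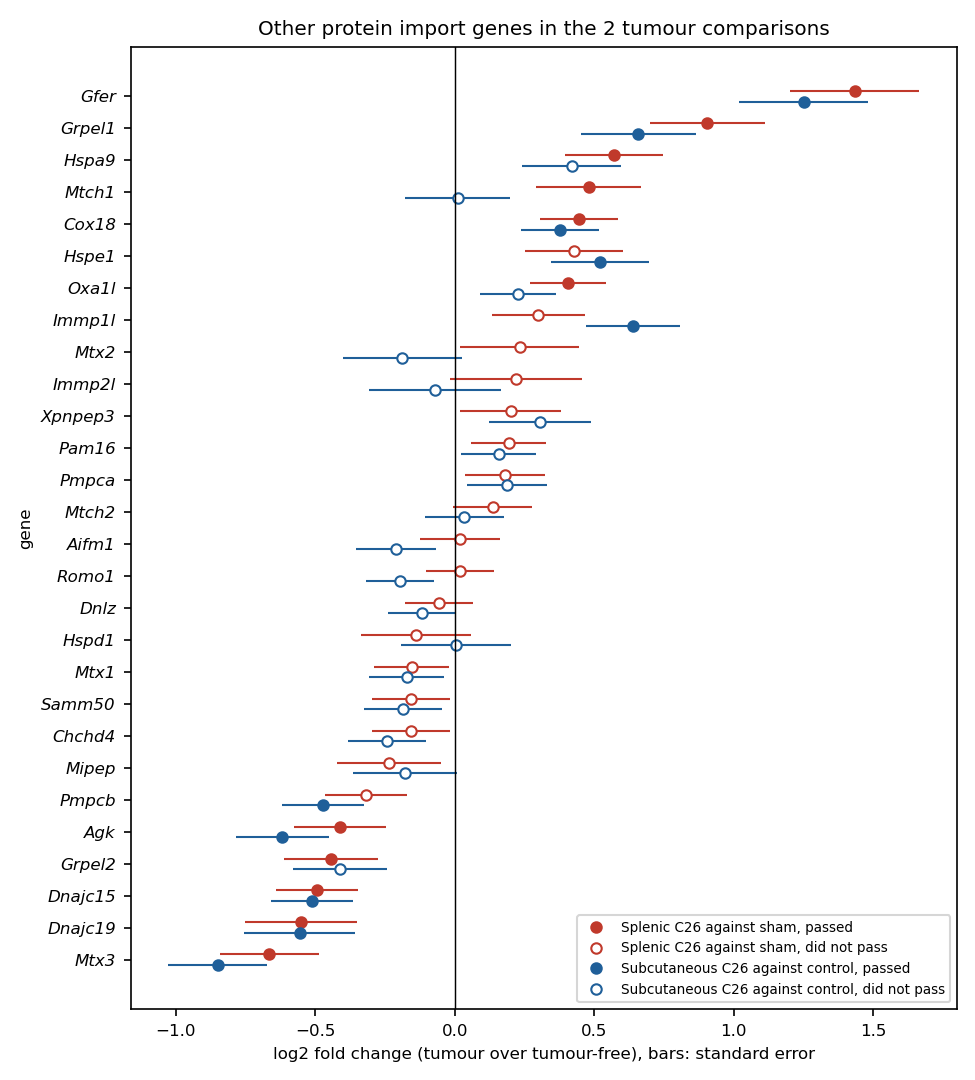
Log2 fold change with its standard error (horizontal axis) of the 28 other protein import genes (vertical axis) in splenic C26 against sham (red) and subcutaneous C26 against control (blue), 4 libraries a group; filled points passed an adjusted p of 0.05. Gfer (1.43 and 1.25) and Mtx3 (-0.66 and -0.85) are at the ends.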

How the data were processed

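Gene counts of 16 quadriceps libraries were analysed. The authors made the deposited raw counts with STAR and featureCounts, per the labels; the submitters' processing notes name FastQC, STAR, edgeR and mm10. The sources used here do not state versions, annotation or strand. The deposited log2 values were made by the authors from those counts, with the transformation not given in the sources used here, and served as per-length levels and as an alternative unit. The 4013 blank lines without a gene were left out, and filterByExpr removed 0 of 13320 genes. CPM used TMM library sizes. Totals of 25.9 to 34.9 M limit precision mainly for the member under 1 CPM.

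Groups came from the tumour label; replicate numbers name libraries and pair none. Within groups, the lowest chi-square per degree of freedom between libraries was 12.9, and none was taken for a repeat. Tests used R 4.3.3 with edgeR 4.0.16 (robust quasi-likelihood fit of 1 mean per group to all 16 libraries with TMM, Benjamini-Hochberg adjustment over all genes, threshold 0.05), checked on simulated counts. In the simulated counts few genes changed, equally often up and down, and libraries of a group were drawn alike. The check therefore does not cover data such as these, with 52.0% and 50.0% of genes called and 2 intermediate libraries. Alternatives were DESeq2 1.42.0, upper-quartile and RLE scaling, 2 other filters on counts, limma-voom and limma-trend (limma 3.58.1), fits of 8 libraries, a threshold of 0.01, and omission of abundant genes, of each library and of 2 sets of libraries. The members, lists, alternatives and sets of omitted libraries were chosen with earlier results of these data known. Values per library are printed for up to 5 called members with the highest and 5 with the lowest fold change per tumour comparison, for members called in the difference between sites, and for Tomm40, Tomm20, Timm23, Timm17a, Timm17b, Timm22, Timm44, Timm9 and Timm10; of the other import genes the 4 with the smallest p per comparison are named. Positions are from GENCODE M21 (mm10) and promoters from RefSeq (GRCm38.p6). Before printing, promoters were cut to the longest stretch outside annotated untranslated regions, and other annotated exons were not looked for.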

Additional observations from a re-analysis of the deposited data

Results flagged for a closer look

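In 96 groups of 4 libraries, 1 for each member and group, a library was looked for whose gap to the nearest other, as a share of the group's range, exceeded Dixon's critical value; chance alone sets apart about 1 in 20 groups. Subcutaneous C26 replicate 3 stood apart for 4 of the 5 genes that fell in its group. It held Tomm40l at 30.0 CPM (others 11.2 to 13.6), Timm22 at 21.7 CPM (10.6 to 10.9), Timmdc1 at 31.9 CPM (15.7 to 17.1) and Tomm5 at 22.4 CPM (13.9 to 15.0). Each of these 4 values was the one nearest to the control group. Single libraries stood apart for 4 more genes. Tomm6 was 48.5 CPM in control replicate 2 (others 53.4 to 53.8), Tomm34 was 12.3 CPM in control replicate 1 (10.5 to 10.7), and Timm8a1 was 2.07 CPM in control replicate 2 (1.20 to 1.23). Timm50 was 24.6 CPM in splenic C26 replicate 2 (22.6 to 22.9), still below all sham libraries.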

How the results depend on the processing

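Of 2056 fold changes of single members recomputed over 28 settings, 1982 kept their side of the threshold, 48 lost a call, 26 gained one and 0 called values changed sign. The total also counts the difference between tumour effects and sham against control, where no member was called in the main fit. The 48 losses thus all fell on the 9 members called in each tumour comparison, and the total says little of their stability. Of the 1982, 122 values without a call changed sign, in 37 of 96 pairs of member and comparison. Members higher in splenic C26 (5) numbered 8 without the 2 intermediate tumour libraries and 4 to 8 when 1 library was left out, with 8 without splenic C26 replicate 1. Members lower in splenic C26 (4) numbered 7 under upper-quartile scaling and 2 at a threshold of 0.01. Timm21 and Timm50 also passed as lower there without the 2 intermediate libraries. Members higher in subcutaneous C26 (4) numbered 0 under upper-quartile scaling, 0 at 0.01 and 1 to 4 when 1 library was left out: 2 without subcutaneous C26 replicate 1, subcutaneous C26 replicate 4, control replicate 1 or control replicate 2, and 1 without subcutaneous C26 replicate 2. Members lower in subcutaneous C26 (5) numbered 9 under upper-quartile scaling, 8 without the 2 intermediate libraries, 3 without the 4 libraries left out together for markers of other cells and 2 at 0.01. For the difference between tumour effects, 1 member (Tomm20) was higher in place of 0 without the 2 intermediate libraries. Apart from the effect of fewer samples or a stricter threshold, the cause was not tested. No paired analysis was possible because the groups compared share no replicate numbers in the labels. Depth limits Tomm6os and Timm8a1 most.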

Other observations

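Some members start beside another gene on the opposite strand, and the neighbours, picked after their values were seen, did not always move with them. Timm8b starts 98 bases from Sdhd, which encodes a membrane anchor subunit of respiratory complex II. Sdhd fell in splenic C26 (log2 -0.80 ± 0.20 SE, edgeR adjusted p = 0.00425) and in subcutaneous C26 (-0.90 ± 0.20, 0.00224), while Timm8b was at 0.12 ± 0.14 and -0.18 ± 0.14 without a call. The difference between the genes was not tested. Timm23 and Parg start 51 bases apart and Timm17b and Pqbp1 88 bases apart, and none of these 4 passed in either comparison. Tomm6 starts 644 bases from Frs3, which passed in subcutaneous C26 (log2 0.74, edgeR adjusted p = 0.0134) and was at 0.09 in splenic C26 (0.762).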
